A study of Mus musculus with 16 samples.

Results

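Paneth cells sit at the base of the small intestinal crypt and release granules that hold antimicrobial proteins. The α-defensins are the best known of these, and the 9 genes described here encode proteins of the Paneth cell or its granule other than defensins: Lyz1, Lyz2, Mmp7, Itln1, Mptx1, Mptx2, Pnliprp2, Habp2 and Clps. They were chosen by name from the 45513 genes of the count files, with earlier results of these data known. All 9 passed the filter on low counts that left 15323 genes to test. Each gene was compared between labelled and unlabelled epithelial cells taken from the same mice, and Lyz1 was contrasted with Lyz2 and Mptx1 with Mptx2. The main tests between fractions did not use the pairing by mouse, which entered the intervals and the alternative fits and tests.

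The 16 libraries came from 8 mice, with 1 library of labelled (tdTom+) and 1 of unlabelled (tdTom-) EpCAM+ cells from the proximal small intestine of each. All mice were Atoh1(WT)CreERT2 R26RtdTom animals of both sexes, 8 to 16 weeks old and on a C57BL/6 background, homozygous for the CreERT2 allele and heterozygous for the reporter. CreERT2, a recombinase switched on by tamoxifen, was placed downstream of the coding sequence of Atoh1, the transcription factor gene that commits intestinal cells to the secretory lineage, and the red reporter tdTomato (tdTom) stays on in recombined cells and their progeny. Both fractions therefore carried the same alleles and had the same tamoxifen, which the labels, and the methods for the secretory signature, give as 1 mg a day on 3 days. The methods on sequencing instead describe an injection the day before collection, and which schedule applied was not resolved. No library came from mice without tamoxifen or without the CreERT2 allele, and the labelled fraction was a mixture of secretory cells and not sorted Paneth cells.

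The libraries held 17116405 to 25323567 counts assigned to genes, so that 3 counts, the floor used for a gene not seen, corresponded to 0.118 to 0.175 CPM, the count scaled to a common library size. All 4 Paneth markers (Defa17, Defa22, Defa24 and Ang4) and all 8 goblet markers were higher in tdTom+ cells, and all 8 absorptive markers were lower. All 6 enteroendocrine and all 4 tuft markers were also higher in tdTom+ cells, with median log2 fold changes of 1.65 and 2.06 against 7.25 for the goblet and 7.47 for the Paneth list. Of all genes tested, 22.7% were called higher and 27.0% lower in tdTom+ cells. Summed over the list, goblet markers reached 127950 to 263906 CPM in tdTom+ and 951 to 1509 CPM in tdTom- libraries. Epcam, the surface protein used for the sort, did not pass the test (log2 fold change -0.11, adjusted p = 0.153 by the edgeR quasi-likelihood test with Benjamini-Hochberg adjustment). The other epithelial markers did, with Cdh1 (0.47) and Krt8 (0.53) higher and Vil1 (-1.43) lower in tdTom+ cells.

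The proteins fall into several kinds. Lyz1 and Lyz2 encode lysozymes, which cut bacterial cell wall peptidoglycan, and Lyz1 is the form of Paneth cells while Lyz2 is best known from macrophages. Mmp7 encodes matrilysin, the protease that activates α-defensins in the mouse, and Itln1 encodes intelectin, a lectin that binds microbial glycans. Mptx1 and Mptx2 encode mucosal pentraxins. Pnliprp2 encodes a lipase related to pancreatic lipase, Clps encodes colipase, the cofactor of that lipase, and Habp2 encodes a hyaluronan-binding plasma serine protease.

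The lysozyme genes lie 5.5 kb apart on the minus strand of chromosome 10 (GRCm38), Lyz1 at chr10:117287796-117292868 and Lyz2 at chr10:117277334-117282274, with 4 exons each. The mucosal pentraxin genes lie 1052.7 kb apart on chromosome 1, Mptx1 at chr1:174330518-174332873 on the plus strand and Mptx2 at chr1:173274382-173277777 on the minus strand, with 2 exons each. Both pairs are close in sequence, and this bears on every count that follows because the reads were 50 bases long. The coding sequences of Lyz1 and Lyz2 were both 447 bases long and identical at 425 of them (95.08%). Those of Mptx1 and Mptx2 were both 660 bases long and identical at 607 (91.97%). The longest stretch without a difference ran from exon 2 into exon 4 in the lysozymes, over 118 bases, and from exon 1 into exon 2 in the pentraxins, over 109 bases. A read from either stretch belongs to both genes of its pair. They are shown in lower case because no base differs.
Lyz1 and Lyz2: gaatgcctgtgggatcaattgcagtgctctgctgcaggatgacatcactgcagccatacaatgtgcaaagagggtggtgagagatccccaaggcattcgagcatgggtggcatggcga
Mptx1 and Mptx2: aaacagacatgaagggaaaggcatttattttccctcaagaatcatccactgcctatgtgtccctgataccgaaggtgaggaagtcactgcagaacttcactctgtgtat

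The genes can be told apart elsewhere in the coding sequence. The 60 coding bases with the most differences are given below for each pair, with the differing bases in capitals. In the lysozymes they lie in exon 1 and hold 9 differences, at chr10:117292719-117292778 for Lyz1 and chr10:117282123-117282182 for Lyz2.
Lyz1: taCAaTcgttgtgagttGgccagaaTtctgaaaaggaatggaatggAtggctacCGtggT
Lyz2: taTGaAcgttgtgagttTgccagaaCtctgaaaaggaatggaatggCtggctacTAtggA

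In the pentraxins the window lies in exon 2 and holds 11 differences, at chr1:174332659-174332718 for Mptx1 and chr1:173274532-173274591 for Mptx2.
Mptx1: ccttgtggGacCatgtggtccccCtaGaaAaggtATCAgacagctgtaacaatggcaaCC
Mptx2: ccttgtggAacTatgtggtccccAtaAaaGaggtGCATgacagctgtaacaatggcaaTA

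Over whole transcripts, 195 of the 1214 windows of 50 bases in Lyz1 (16.06%) were found unchanged in Lyz2, and 765 (63.01%) were found there with up to 2 mismatches. For Mptx2, 134 of 745 windows (17.99%) were found unchanged in Mptx1 and 244 (32.75%) with up to 2 mismatches. Itln1 shared 11 of its 1132 windows with the annotated gene Gm9765, and no window of Mmp7, Pnliprp2, Habp2 or Clps was found in another gene.

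All 9 genes were higher in tdTom+ than in tdTom- cells. Each was higher in 8 of 8 mice, and the lowest tdTom+ library exceeded the highest tdTom- library for every gene. Over the 15323 genes tested, 22.7% were called higher in tdTom+ cells at an adjusted p under 0.01, and 14.6% had all tdTom+ libraries above all tdTom- libraries. The log2 fold changes of the 9 genes ran from 6.28 for Habp2 to 7.70 for Mptx2 with a median of 7.42, against a median of 0.0087 over all genes tested, and 7 of the 9 were among the 65 genes with a log2 fold change of at least 7. In bulk RNA, fewer cells of a type and less RNA per cell cannot be told apart. The 9 genes together took 4.51% ± 1.13 (SD, n = 8) of the counts in tdTom+ libraries and 0.0275% ± 0.00385 (SD, n = 8) in tdTom- libraries. The exact permutation p (two-sided) of this difference, 0.000155, is the smallest that 8 libraries against 8 can give, but it ignores the pairing by mouse. With sign flips within mice, which keep the pairing, the exact p was 0.00781, the smallest that 8 mice can give.

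**Figure D1:**
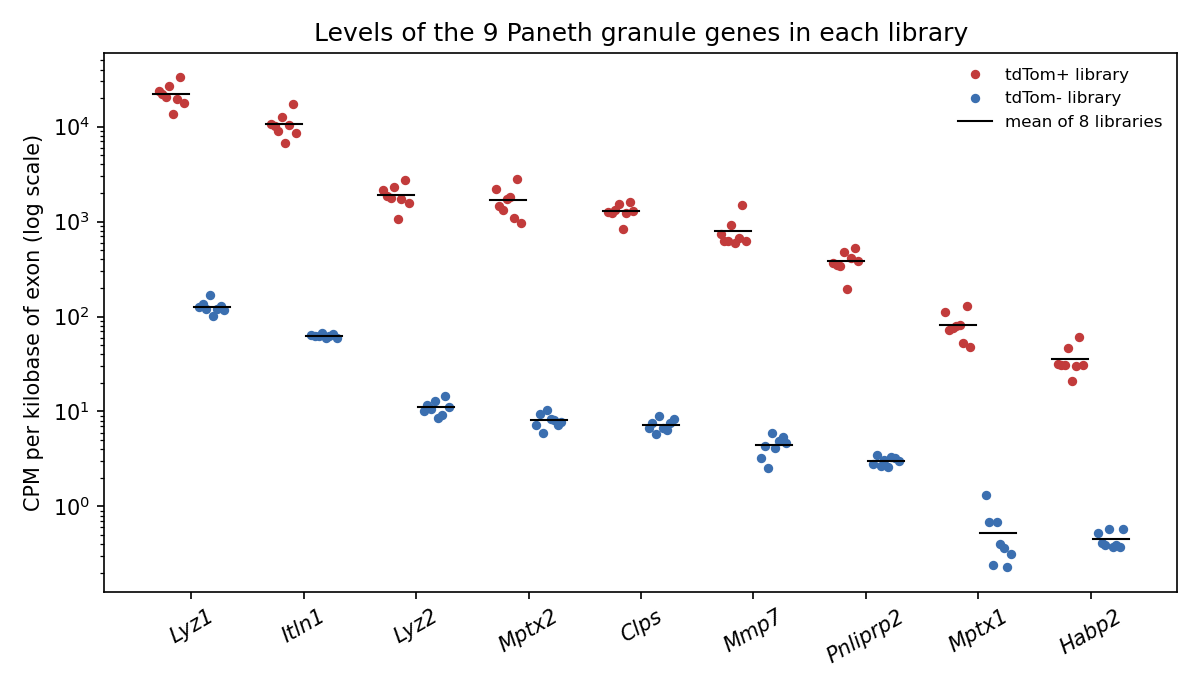
CPM per kilobase of exon (log scale) of the 9 genes in each of the 16 libraries, tdTom+ in red and tdTom- in blue, with the mean of 8 libraries as a bar and genes in order of their tdTom+ mean. The red and blue points of a gene do not overlap for any of the 9 genes, and Itln1 has the tightest blue points, with a coefficient of variation of 4.25%.

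Lyz1 was the highest of the 9 and the third of all genes by level in tdTom+ cells. Its CPM in the tdTom+ libraries had a lowest value of 17044, a median of 27100 and a highest value of 41688, and in the tdTom- libraries 129, 155 and 212. The lowest tdTom+ library was that of mouse 5 and the highest that of mouse 7. The log2 fold change was 7.45 ± 0.22 (SE, adjusted p = 4.3e-15, edgeR), a 175-fold difference, and Lyz1 alone took 2.73% ± 0.664 (SD, n = 8) of all counts in tdTom+ libraries.

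Lyz2 was counted at about the same multiple of its tdTom- level. Its CPM ran from 1353 through a median of 2317 to 3455 in tdTom+ libraries, and from 10.9 through 13.7 to 18.4 in tdTom- libraries. The same mice stood at the ends of the tdTom+ range as for Lyz1, and the groups did not overlap. The log2 fold change was 7.42 ± 0.21 (SE, adjusted p = 2.0e-15, edgeR). With the counts of both lysozymes summed, so that the division of shared reads between them did not matter, the log2 fold change was 7.45 ± 0.22 (SE, adjusted p = 4.7e-15, edgeR).

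Mmp7 (chr9:7692090-7699585, 6 exons) had a lowest, median and highest CPM of 634, 698 and 1588 in tdTom+ libraries and of 2.71, 4.84 and 6.38 in tdTom- libraries. The highest tdTom+ value, again in mouse 7, stood well above the next one of 980 CPM in mouse 4. The log2 fold change of this defensin-activating protease was 7.48 ± 0.26 (SE, adjusted p = 2.8e-14, edgeR).

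Itln1 (chr1:171518122-171535294) was the second most abundant of the 9 genes. Its CPM ran from 7676 through 11657 to 20006 in tdTom+ libraries and from 67.3 through 71.3 to 76.3 in tdTom- libraries. The tdTom- libraries were thus nearly level for this gene, with a coefficient of variation of 4.25% against 30.4% in tdTom+ libraries. The log2 fold change was 7.42 ± 0.20 (SE, adjusted p = 1.5e-15, edgeR).

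The mucosal pentraxins differed widely in level. Mptx2 ran from 769 through 1258 to 2233 CPM in tdTom+ libraries and from 4.74 through 6.25 to 8.14 CPM in tdTom- libraries, and it rose by 7.70 ± 0.25 on the log2 scale (SE, adjusted p = 1.3e-14, edgeR), rank 5 among all genes tested. Mptx1 ran from 38.3 through 62.3 to 103 CPM in tdTom+ libraries and from 0.182 through 0.305 to 1.04 CPM in tdTom- libraries, where these values rested on only 4 to 20 counts. The tdTom- floor of 3 counts therefore lies close to its lowest libraries. The log2 fold change of Mptx1 was 7.29 ± 0.30 (SE, adjusted p = 3.9e-13, edgeR), and that of both pentraxins summed was 7.68 ± 0.25 (SE, adjusted p = 1.4e-14, edgeR). Mptx1 passed the filter on low counts through its tdTom+ libraries, so its direction was not free of that filter. Its log2 fold change was 7.28 in the fit without the filter.

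The fat-digesting pair, Pnliprp2 (chr19:58759723-58777533) and Clps (chr17:28558210-28560766), also rose in tdTom+ cells. Pnliprp2 had a lowest, median and highest CPM of 306, 592 and 822 in tdTom+ libraries and of 4.06, 4.78 and 5.48 in tdTom- libraries. Clps had 461, 708 and 878 CPM in tdTom+ libraries and 3.19, 3.91 and 4.87 in tdTom- libraries. Mouse 5 gave the lowest and mouse 7 the highest tdTom+ value for both genes. The log2 fold change was 6.98 ± 0.19 (SE, adjusted p = 1.3e-15, edgeR) for Pnliprp2 and 7.48 ± 0.15 (SE, adjusted p = 1.1e-16, edgeR) for Clps. Since both are also made by pancreatic acinar cells, 12 acinar genes were examined, and Cela2a, Cela3b, Prss2, Cpa1, Cpb1 and Try4 had no count in any of the 16 libraries. Pnlip, the classical pancreatic lipase, had 0 counts in every tdTom+ library and at most 1 in a tdTom- library. Summed over the 12 genes the level was 6.47 to 13.0 CPM in tdTom+ and 0.0911 to 1.10 CPM in tdTom- libraries, and most of the tdTom+ sum came from Pnliprp1, a close relative of Pnliprp2, with 117 to 295 counts a library. Ctrb1, a chymotrypsinogen gene, had 9 to 32 counts in tdTom+ and 0 to 3 in tdTom- libraries.

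Habp2 (chr19:56287137-56320822) was the lowest of the 9 genes per length in tdTom+ cells. Its CPM had a lowest, median and highest value of 67.1, 99.0 and 193 in tdTom+ libraries and of 1.18, 1.28 and 1.86 in tdTom- libraries, the latter from 24 to 44 counts. The groups did not overlap, and the rise of 6.28 ± 0.22 on the log2 scale (SE, adjusted p = 4.5e-14, edgeR) was the smallest of the 9.

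**Figure D2:**
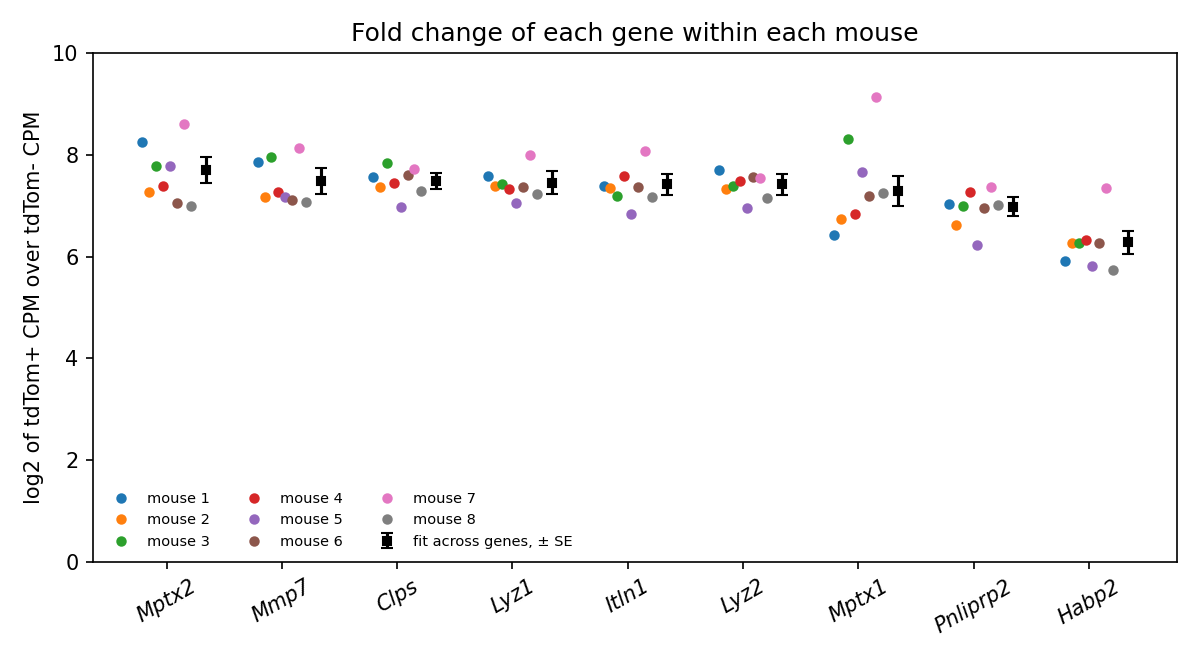
Log2 of tdTom+ over tdTom- CPM for each of the 9 genes in each of the 8 mice (colours), with the log2 fold change and its standard error from the fit across all genes as a black square. Mouse 7 gives the highest point for 7 of the 9 genes, and the Habp2 points lie lowest as a group.

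Whether the genes differed among themselves was tested on the log2 ratio of 2 genes within a library, which needs no scaling between libraries. The ratio was compared between fractions by an exact two-sided permutation test, with p-values adjusted over the 9 pairs compared. Pnliprp2 rose less than Lyz1, with a ratio lower by 0.49 on the log2 scale in tdTom+ cells (95% interval -0.71 to -0.24 from the sign-flip test over mice, adjusted exact p = 0.0035, lower in 8 of 8 mice). Habp2 rose less still, with a ratio to Lyz1 lower by 1.20 (interval -1.46 to -0.94, adjusted exact p = 0.0014, lower in 8 of 8 mice). Habp2 thus made up 0.240% of the 9 genes' counts in tdTom+ and 0.541% in tdTom- libraries. Under the replicate block (sign flips within mice), the adjusted exact p was 0.0352 for both genes, from the smallest p that the sign-flip test over 8 mice can give (0.00781).

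The other genes could not be distinguished from Lyz1 in their fold change. The difference in log2 ratio to Lyz1 was 0.04 for Mmp7 (interval -0.20 to 0.30), -0.05 for Itln1 (interval -0.20 to 0.10) and 0.05 for Clps (interval -0.12 to 0.22). For Mptx2 it was 0.21 (interval -0.19 to 0.64) and for Mptx1 -0.08 (interval -0.73 to 0.62). All 5 had an adjusted exact p of 0.757 or more. The intervals were widest for the pentraxins. Folds of this size were not particular to these genes. The 8 goblet markers had log2 fold changes from 6.16 for Agr2 to 7.55 for Muc2, with a median of 7.25.

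**Figure D3:**
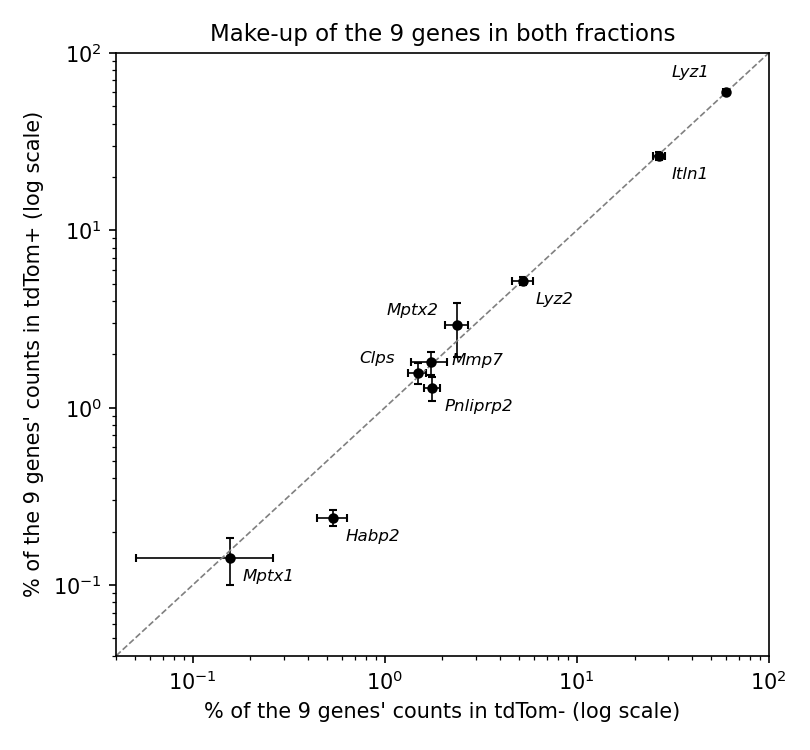
Share of each gene in the summed counts of the 9 genes, tdTom+ against tdTom- libraries (both axes logarithmic), as mean ± SD of 8 libraries each, with the line of equal shares dashed. Lyz1 holds 60.6% in tdTom+ and 59.8% in tdTom-, most genes lie near the line, and Habp2 lies farthest below it.

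Lyz1 and Lyz2 did not differ measurably in their fold change. The Lyz2 count was 7.94% to 8.91% of the Lyz1 count in tdTom+ libraries, with a median of 8.62%, and 7.64% to 11.2% in tdTom- libraries, with a median of 8.63%. The log2 ratio of Lyz1 to Lyz2 was higher in tdTom+ by 0.03 (interval -0.14 to 0.21, adjusted exact p = 0.813), and it was higher in 5 of 8 mice. The tdTom- library of mouse 7 stood apart with 11.2%, and the next was 9.39% in mouse 8. Without mouse 7 the difference was -0.03. The ratio can be set against the sequences shown above. Suppose that every read came from Lyz1 and that reads were spread evenly over its windows. If those from the unchanged windows were divided evenly between both genes, Lyz2 would be counted at 8.73% of Lyz1. The measured percentage was above this in 2 of 8 tdTom+ and 4 of 8 tdTom- libraries. How much of the Lyz2 count came from Lyz2 RNA was not resolved from these gene counts.

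Macrophage markers were examined beside Lyz2, since that gene is abundant in macrophages. Of the 12 genes 4 passed the filter, and all 4 were lower in tdTom+ cells, beside 27.0% of all genes called lower. Fcer1g, with 1 to 16 counts in tdTom+ and 8 to 47 in tdTom- libraries, passed mainly through the tdTom- libraries. Its direction was thus not free of the filter. Summed over the 12 genes the counts were 121 to 231 in tdTom+ libraries and 247 to 768 in tdTom- libraries. Itgam alone had 78 to 174 counts in tdTom+ and 142 to 330 in tdTom- libraries, so the sum rests largely on this gene. In tdTom+ libraries Csf1r had 0 to 3 counts and C1qa 1 to 5. The highest sum belonged to the tdTom- library of mouse 7, which also held 84 counts of Csf1r, the receptor of a macrophage growth factor, and 48 of C1qa, a complement gene. The other tdTom- libraries held 7 to 31 and 2 to 12 counts of these genes. The part of these cells in the Lyz2 count of that library was not tested. Of 6 neutrophil markers none passed the filter, with 1 to 5 summed counts in tdTom+ and 5 to 15 in tdTom- libraries.

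Mptx1 and Mptx2 gave a wider result. The Mptx1 count was 4.48% to 5.88% of the Mptx2 count in tdTom+ libraries, with a median of 4.96%, and 3.17% to 18.0% in tdTom- libraries, with a median of 4.67%. The log2 ratio of Mptx1 to Mptx2 was lower in tdTom+ by 0.29 (interval -0.92 to 0.26, adjusted exact p = 0.757), lower in 4 of 8 mice and higher in the other 4. The tdTom- library of mouse 1 gave the 18.0%, from 20 counts of Mptx1 against 111 of Mptx2, and without mouse 1 the difference was -0.07 (range -0.39 to -0.07 with each mouse left out in turn). The call depended on the constant added before the logarithm, since with 2 counts in place of 0.5 the difference was -0.54 (adjusted exact p = 0.0121). Under the even division used above, with all reads from Mptx2, Mptx1 would be counted at 9.88% of Mptx2, and the measured value was below this in 8 of 8 tdTom+ and 7 of 8 tdTom- libraries. That value also takes the reads as spread evenly over the windows, which was not tested. Gene counts thus cannot show how shared reads were divided in this pair or in the lysozymes. How much of the Mptx1 count came from Mptx1 RNA was not resolved either. The level and fold change given for Mptx1, like those of Lyz2, are those of its assigned reads.

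**Figure D4:**
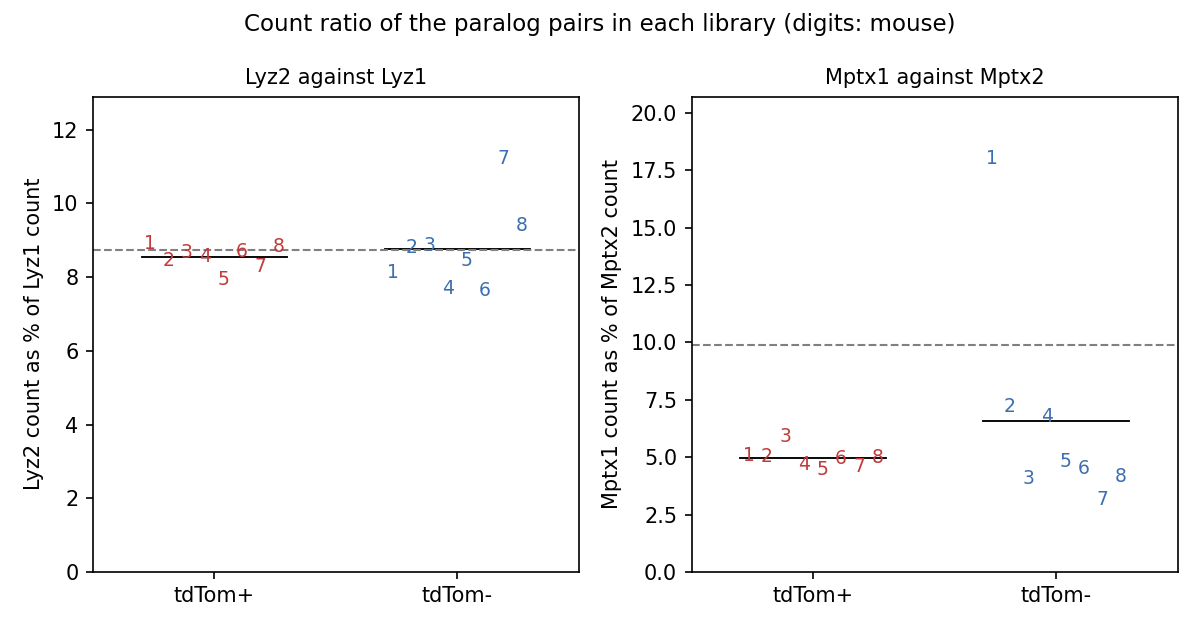
Lyz2 count as a percentage of the Lyz1 count (left) and Mptx1 count as a percentage of the Mptx2 count (right) in each library, each digit being the mouse of that library and each solid bar the mean of 8 libraries. The dashed line is the value from evenly spread reads and even division of those from unchanged windows, 8.73% (left) and 9.88% (right). The tdTom- libraries of mouse 7 (left) and mouse 1 (right) lie farthest from the others.

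Within tdTom+ libraries both pairs varied together from mouse to mouse. Over 8 libraries the log2 levels of Lyz1 and Lyz2 had a Pearson r of 0.992 (exact permutation p adjusted over 4 relations 9.9e-05) and a Spearman rho of 1 (adjusted exact p = 0.000198), and r was 0.991 without the 2 libraries farthest from the median. Those of Mptx1 and Mptx2 had r = 0.974 (adjusted exact p = 0.000198) and rho = 0.976 (adjusted exact p = 0.000794), with r = 0.931 without 2 libraries. In tdTom- libraries r was 0.708 (adjusted exact p = 0.0656) with rho = 0.762 (adjusted exact p = 0.0490) for the lysozymes and 0.474 (adjusted exact p = 0.234) with rho = 0.619 (adjusted exact p = 0.115) for the pentraxins. Without 2 libraries these were 0.629 and 0.882. Both genes of a pair share windows and therefore reads, and both share the depth and cell make-up of the library.

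Per kilobase of exon, the order of the 9 genes by mean CPM was the same in both fractions. In tdTom+ libraries it ran Lyz1 (22239 CPM per kb), Itln1 (10725), Lyz2 (1898), Mptx2 (1674), Clps (1293), Mmp7 (788), Pnliprp2 (381), Mptx1 (81.5) and Habp2 (35.3). In tdTom- libraries Lyz1 had 127 CPM per kb and Habp2 0.453. Neighbours in the order were compared by exact sign-flip tests adjusted over 16 pairs. Lyz2 and Mptx2 (adjusted p = 0.283) and Mptx2 and Clps (adjusted p = 0.196) did not differ beyond their spread in tdTom+ libraries, nor did Mptx2 and Clps (adjusted p = 0.0962) or Mptx1 and Habp2 (adjusted p = 0.797) in tdTom- libraries. The other 12 neighbour pairs differed. The order, and so the pairs, were taken from the same libraries, which makes these tests descriptions.

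The members did not rank the mice alike. Mouse 5 had the lowest tdTom+ CPM of Lyz1, Lyz2, Mmp7, Itln1, Pnliprp2, Habp2 and Clps. Its Mptx2 level of 1453 CPM was the third highest, below those of mouse 7 and mouse 1 (1761 CPM). Mouse 8 had the lowest Mptx1 (38.3 CPM) and Mptx2 (769 CPM). The 3 genes most like each member were sought by Pearson r of log2 deviations from the fraction means over all 16 libraries. For Lyz1 they were Ang4 (r = 0.939), AY761184 (0.922) and Defa26 (0.922), and for Lyz2 they were Lyz1 (0.920), Zbtb1 (0.891) and AY761184 (0.884). For Mmp7 they were Gm15293 (0.894), Defa35 (0.888) and Defa37 (0.874), and for Itln1 Defa26 (0.956), Defa3 (0.955) and Defa17 (0.948). For Mptx1 they were Irs1 (0.817), Pik3r3 (0.782) and A4gnt (0.747), and for Mptx2 Cdk17 (0.768), Rbm18 (0.755) and Tmem203 (0.701). For Pnliprp2 they were Gm14851 (0.853), Tcf4 (0.851) and Defa3 (0.844), for Habp2 Defa26 (0.926), Pla2g2f (0.909) and Defa29 (0.893), and for Clps Nanos1 (0.904), Ccdc167 (0.835) and Lyz2 (0.830). Defensin genes are near copies of each other, so that their own counts are uncertain.

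Among relatives of the members the results were mixed. Of 5 further lysozyme family genes none passed the filter. Of 17 other matrix metalloproteinases 7 were tested, of which 3 were higher (Mmp15 with a log2 fold change of 1.71, Mmp14 with 1.56 and Mmp28 with 0.86) and 2 lower (Mmp23 with -2.42 and Mmp12 with -0.72), with a list median of 0.04. Of 6 further pentraxins 2 were tested, and Nptx1 was higher (2.66) while Crp, the C-reactive protein gene, had 0.09 (adjusted p = 0.820, edgeR). Of 9 lipase and colipase relatives 4 were tested, Pnliprp1 being higher (4.14), Lipe, the hormone-sensitive lipase, lower (-2.72), and Lipg (-0.14) and Lpl (0.14) not past the threshold. Of 5 plasma serine proteases related to Habp2 only Hgfac was tested, and it was higher (4.37), while of 4 inhibitors of metalloproteinases 2 were tested and Timp2 was higher (1.59) while Timp3 had 0.19 (adjusted p = 0.567, edgeR). Nptx1, Timp2 and Pnliprp1 passed the filter mainly through the tdTom+ libraries, with 4 to 14, 1 to 17 and 2 to 20 counts in tdTom- libraries. Mmp23 passed mainly through the tdTom- libraries, with 5 to 14 counts in tdTom+ libraries. The directions of these genes were thus not free of the filter. All of these list medians and counts are descriptions, beside 22.7% of all genes called higher and 27.0% called lower.

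Other Paneth granule genes mostly rose as well. Of 7 tested, 5 were higher, namely Defa17, Defa22, Defa24, the ribonuclease gene Ang4 and the phospholipase gene Pla2g2a, with log2 fold changes from 7.32 for Pla2g2a to 7.68 for Ang4. Defa17, Defa22, Defa24 and Ang4 are also the Paneth markers given above, so among the higher genes only Pla2g2a was new here. The antibacterial lectin Reg3b was lower (-2.23, adjusted p = 0.00027, edgeR), and Reg3g had -0.99 (adjusted p = 0.0247, edgeR). With a replicate block for the mouse, Reg3g passed the threshold (-0.84, adjusted p = 2.1e-05, edgeR). Of 16 genes of Paneth identity and granule formation, 15 were tested, 11 were higher and 2 lower. Over all genes tested, 22.7% were called higher and 27.0% lower, beside the counts of both lists. Among those higher were Nupr1 (7.11), a stress-responsive gene, and Spdef (6.74), a transcription factor gene of goblet and Paneth cells. Also higher were Bhlha15 (5.67), a secretory transcription factor gene, and Gfi1 (5.49), a transcriptional repressor gene of the secretory lineage. Nupr1 and Gfi1 had 6 to 17 and 7 to 22 counts in tdTom- libraries and passed the filter mainly through tdTom+ libraries. Their directions were thus not free of it. The Wnt receptor gene Fzd5 (-0.77) and the zinc transporter gene Slc30a2 (-1.08) were lower, while Nod2 (0.07) and Atg16l1 (-0.20) did not pass the threshold.

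The windows around the annotated starts were read from the RefSeq promoter table (GRCm38.p6), which held windows of 250 bases before to 50 after the start for 8 of the 9 genes. Clps was not matched. The E-box CANNTG, the core motif of basic helix-loop-helix factors such as ATOH1, was found on both strands (it reads the same on each) in the windows of 8 of 8 genes, against 72.3% of all 32851 windows. Its form CAGCTG was found in Lyz1 and Lyz2 (16.3% of all windows), CTTTGA, the TCF/LEF core, in Mmp7, Mptx1 and Pnliprp2 (16%), and TATAAA in Mmp7 and Mptx1 (13.6%), counting either strand. CAGCTG matches are also CANNTG matches. The 250 bases before the start were 79.37% identical between Lyz1 and Lyz2 and 72.43% identical between Mptx1 and Mptx2. Lyz1 and Lyz2 shared E-boxes at the same distances, 129 and 78 bases before the start, and their surroundings are shown to let the pair be compared, with the E-box in capitals. The windows lie at chr10:117292980-117293009 and chr10:117292929-117292958 for Lyz1 and at chr10:117282384-117282413 and chr10:117282333-117282362 for Lyz2, all on the minus strand.
Lyz1, 129 before: gacaaagaaggtCAAGTGctaaagtccata
Lyz2, 129 before: aagaaggaagatCAAGTGctgaagtccata
Lyz1, 78 before: ttacgcacagatCAAATGtaggaggccgca
Lyz2, 78 before: ttgcacacagctCAAATGtaggaaaccaca

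A match is a description of these letters and does not show that a factor binds there.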

How the data were processed

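RNA of sorted EpCAM+ cells was sequenced as 50-base single-end reads from stranded mRNA libraries. The authors aligned them with TopHat2 (2.1.1 in the submitters' notes) to GRCm38, and deposited unnormalised counts for each Ensembl gene, made by featureCounts 1.5.0-p1 per the file headers (the notes give Subread 1.5.2) over exons, counting reverse-strand reads at their primary alignment. A read that fits several places is counted once, so counts of near-identical genes can be divided arbitrarily. Depth was 17116405 to 25323567 counts a library, and floors of 3 counts cover counting error only. Intervals of pair differences hold the shifts that the sign-flip test over 8 mice does not reject at 0.05, and so cover the spread between mice. Groups came from the group label and mouse numbers from the titles.

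Symbols from GENCODE M21 matched 44585 of 45513 identifiers. In R 4.3.3, edgeR 4.0.16 was used with filterByExpr, TMM scaling and the quasi-likelihood test without a block, adjusted by Benjamini-Hochberg over 15323 genes (threshold 0.01). CPM are TMM-normalised. Pair ratios had 0.5 counts added and exact tests a threshold of 0.05 (Python 3.11.15, scipy 1.17.1). The scripts were checked on simulated data. Alternatives used DESeq2 1.42.0 and limma 3.58.1 among others. The 9 genes and the lists were chosen with earlier results of these data known. Named are all 9 genes, the 3 genes most like each, and the tested genes of the lists, with lists of more than 5 measured genes given by counts and some of the genes with the largest change. Genes of the macrophage, neutrophil and acinar lists below the filter, named for their counts, were chosen after their values were seen.

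Both fractions came from each mouse, so the mouse number pairs the libraries. Deviations from the fraction means correlated with a mean r of 0.426 (0.245 to 0.634) within a mouse and -0.0569 between mice, and the best match was the same mouse in 8 of 8. Because deviations are taken from the fraction means, the value between mice largely follows from the value within a mouse. The labels give no batch, so no within-batch value could be had.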

Additional observations from a re-analysis of the deposited data

Results flagged for a closer look

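In 24 sets of 8 libraries (the log2 CPM of each gene in each fraction, the pair ratios and the share of counts), the highest or lowest library was compared with its nearest neighbour by Dixon's criterion for 8 values, which chance passes in about 1 of 20 sets, or 1.2 of 24. It was passed in 6. Mmp7 in tdTom+ cells was highest in mouse 7, at a log2 CPM of 10.63 against 9.94 in the next library. Pnliprp2 in tdTom+ cells was lowest in mouse 5, at a log2 CPM of 8.26 against 9.05. Clps in tdTom+ cells was lowest in the same mouse, at a log2 CPM of 8.85 against 9.40. The log2 ratio of Mptx1 to Mptx2 counts was highest in mouse 3 among tdTom+ libraries, at -4.10 against -4.31. Among tdTom- libraries that ratio was highest in mouse 1, at -2.45 against -3.74, from 20 counts of Mptx1. The share of counts in the 9 genes among tdTom- libraries was highest in mouse 4, at 0.0355% against 0.0288%.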

How the results depend on the processing

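Each of the 9 genes stayed higher and past the threshold in every fit that tested it, 20 alternatives for each gene and 19 for Mptx1, which was not tested where at least 10 counts were asked of every library. The log2 fold changes moved least for Clps (7.41 to 7.60) and most for Mptx1 (7.05 to 7.53). With the replicate block (pairing by mouse) Lyz1 had 7.42, Mptx2 7.63 and Habp2 6.24, and the block changed no call among the members or pairs. The genes called over the whole table numbered 7606 (3473 higher, 4133 lower) and 3434 when a log2 fold change of at least 1 in size was also asked. The split turned to 3724 higher and 3042 lower with at least 10 counts in every library (median of all genes 0.12) and to 3960 higher and 3224 lower without mouse 3 (median 0.12), and leaving out each mouse gave 7005 to 8023 calls. With 2 counts added, the Mptx1 to Mptx2 difference was -0.54 and passed the threshold, where Mptx1 had as few as 4 counts. Differences near 0 changed sign without 1 mouse: Mptx1 against Lyz1 was 0.081 without mouse 1 and 0.01 without mouse 2, Mmp7 against Lyz1 -0.030 and Clps against Lyz1 -0.0029 without mouse 3, and Lyz1 against Lyz2 -0.026 without mouse 7, none of them past the threshold. Their ranges were -0.23 to 0.081, -0.030 to 0.080, -0.0029 to 0.093 and -0.026 to 0.063. The correlation of Lyz1 with Lyz2 in tdTom- libraries was 0.867 without mouse 7 and passed the threshold (adjusted exact p = 0.0114); the cause was not tested. The other 377 values kept direction and side of the threshold. Depth limits Mptx1 and Habp2 in tdTom- libraries, at 4 to 20 and 24 to 44 counts.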
